A study of Mus musculus with 6 samples.

Results

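The C/EBP transcription factors were followed in RNA sequencing libraries of mouse chondrocytes, the cell type of cartilage. They were taken by gene symbol as Cebpa, Cebpb, Cebpd, Cebpg and Cebpz, and all 5 were found among the 23867 gene symbols of the count table. Of 6 libraries, 3 came from chondrocytes of the genotype labelled MFN2wt and 3 from chondrocytes labelled MFN2Col2a1-/-, in which the gene of mitofusin 2, a protein that fuses mitochondria, is knocked out. The knockout libraries carry the names CRE1, CRE2 and CRE3. The labels write Col2a1, a cartilage collagen gene, beside the knockout. The promoter that drives the recombinase, the allele, and the age, sex and number of the mice are not known here. The labels do not tell separate animals from pools or cultures, so a p-value here reflects the spread of these libraries alone, which may be technical.

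C/EBP proteins are transcription factors that bind DNA as dimers through a basic region and a leucine zipper. C/EBP-beta and C/EBP-delta, encoded by Cebpb and Cebpd, are induced by cytokines such as interleukin 6 and interleukin 1 and drive acute-phase and inflammatory genes. C/EBP-alpha, encoded by Cebpa, is known for the differentiation of myeloid cells and adipocytes and for restraining the cell cycle. C/EBP-gamma, encoded by Cebpg, is short, lacks a strong activation domain and pairs with other factors of its class, among them ATF4. Cebpz shares the name through binding to CCAAT boxes, but its protein has no leucine zipper and belongs to the machinery of ribosome assembly. In cartilage, C/EBP-beta has been studied as a factor in the passage of chondrocytes from proliferation to hypertrophy and in the expression of matrix-degrading enzymes.

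RefSeq sequences of the promoter, from 250 bases before the gene start to 50 after it, matched 3 of the 5 genes, Cebpa, Cebpb and Cebpg. They are printed 5′ to 3′ in the gene's direction because these genes gave a fall, a rise and no call in the counts described further on. Their build is GRCm38.p6, whereas the submitters' processing notes name GRCm39, so the positions hold for the older build only. Capitals mark, on either strand, the CRE core TGACG, the C/EBP core TTGCGC, the CCAAT box and the TATA box TATAAA.
Cebpa (chr7:35119043-35119342, plus strand): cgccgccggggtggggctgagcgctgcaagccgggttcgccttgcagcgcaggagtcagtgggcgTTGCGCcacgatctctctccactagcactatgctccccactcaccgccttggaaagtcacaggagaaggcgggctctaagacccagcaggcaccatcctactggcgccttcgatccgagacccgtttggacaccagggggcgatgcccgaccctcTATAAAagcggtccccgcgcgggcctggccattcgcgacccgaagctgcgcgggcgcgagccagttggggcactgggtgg
Cebpb (chr2:167688665-167688964, plus strand): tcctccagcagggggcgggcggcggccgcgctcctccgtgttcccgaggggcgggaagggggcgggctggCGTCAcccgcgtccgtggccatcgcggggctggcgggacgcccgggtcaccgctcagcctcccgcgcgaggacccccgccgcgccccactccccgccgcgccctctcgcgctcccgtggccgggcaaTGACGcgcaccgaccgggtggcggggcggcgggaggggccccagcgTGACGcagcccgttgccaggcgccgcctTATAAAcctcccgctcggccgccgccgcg
Cebpg (chr7:35056517-35056816, minus strand): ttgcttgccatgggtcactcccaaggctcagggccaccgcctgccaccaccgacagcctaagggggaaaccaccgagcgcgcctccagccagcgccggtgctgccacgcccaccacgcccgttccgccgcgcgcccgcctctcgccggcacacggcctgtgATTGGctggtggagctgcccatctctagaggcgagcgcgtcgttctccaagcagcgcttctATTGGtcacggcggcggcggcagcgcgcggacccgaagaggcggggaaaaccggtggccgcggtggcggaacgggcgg

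The Cebpa window held the C/EBP core TTGCGC 185 bases before the gene start and a TATA box at 30 bases before it. The core was present in 6.51% of 32544 promoter windows of this length and the TATA box in 13.57%. The Cebpb window held TGACG, the core of the site that CREB and ATF factors bind, 53 and 7 bases before the start, and its reverse complement 180 bases before it. A TATA box lay 21 bases after the start. The CRE core was present in 20.91% of all windows. The Cebpb window also held GGGCGG, the GC box, in 5 places, where 35.88% of windows had at least 1. It had a GC content of 80.7%, against a median of 53.0% over all windows, 67.3% for Cebpa and 71.7% for Cebpg. In the Cebpg window the reverse complement of CCAAT lay 89 and 28 bases before the start, and CCAAT was present in 37.36% of windows. None of the 3 windows held the full C/EBP palindrome TTGCGCAA (0.18% of windows), the STAT pattern TTCNNNGAA (8.33%) or the κB site (8.49%). These matches describe letters in a short window and say nothing of whether a factor was bound.

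Knockout libraries summed to between 31481779 and 37814723 counts and wild-type libraries to between 39267487 and 40152687. Levels are given as CPM, counts scaled with TMM factors to a common library size, as mean ± SD over n = 3 libraries. Mfn2 itself, counted over the whole gene, averaged 60.0 ± 3.78 CPM in knockout libraries against 107 ± 0.937 CPM in wild-type ones (log2 fold change −0.84, SE 0.046, adjusted p = 2.24e-10, edgeR quasi-likelihood test). Which part of the gene was deleted is not known here, and why Mfn2 counts remained in the knockout was not tested. Defining chondrocyte genes were detected in every library, but 10 of 10 fell, with a summed level of 2908 to 3033 CPM against 8304 to 8485 CPM. Macrophage markers were also present: 16 of 16 fell, from 3170 to 3203 CPM in sum to 346 to 357 CPM, and 1 of the 16, Aif1, was at 0 in CRE3. Of all genes tested, 32.1% were called lower by the rule given below.

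The C/EBP genes split in 3 ways. Cebpd and Cebpb rose, Cebpa fell, and Cebpg and Cebpz did not pass the test. The call needed an adjusted p (Benjamini-Hochberg, edgeR's quasi-likelihood test) below 0.05. By that rule 62.7% of the 15028 genes tested were called, 30.7% higher and 32.1% lower in the knockout, so 3 called of 5 is close to the background. All 5 passed the filter on low counts. The groups did not overlap for Cebpd, Cebpb and Cebpa, as for 67.1% of all genes tested. By the size of its log2 fold change, regardless of direction, Cebpd lay above 93.1% of the genes tested, Cebpa above 89.8% and Cebpb above 84.9%. Cebpg lay above 6.69% of them and Cebpz above 6.67%.

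**Figure D1:**
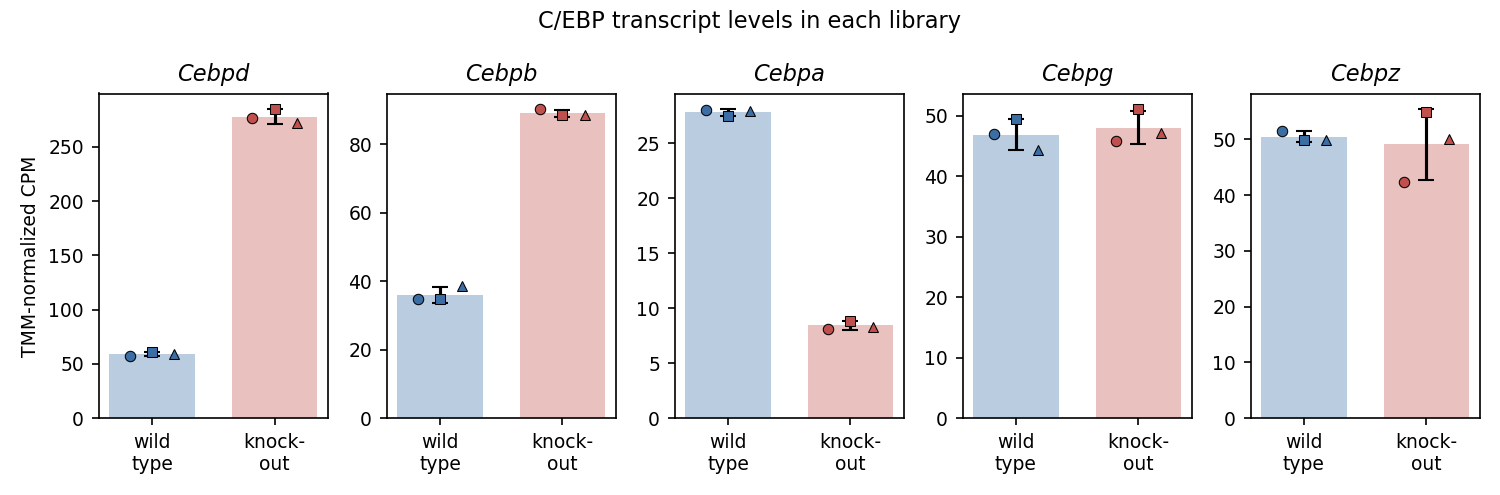
TMM-normalized CPM of the C/EBP genes in each library, with bars for the group mean, error bars for the SD over 3 libraries and symbols for the libraries (circle, square and triangle for numbers 1, 2 and 3 of the library names); each panel has its own axis from 0. The knockout libraries lie above all wild-type libraries for Cebpd and Cebpb and below them for Cebpa, and the groups overlap for Cebpg and Cebpz.

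Cebpd, whose product is an early cytokine-induced member of the family, had the largest change of the 5. Its counts were 8060, 10085 and 8180 in CRE1, CRE2 and CRE3 against 2451, 2568 and 2553 in the wild-type libraries. As levels these were 277, 285 and 272 CPM against 57.5, 60.8 and 59.1 CPM. Every knockout library was far above every wild-type library, and the spread within each group was small beside the gap. The means were 278 ± 6.55 and 59.1 ± 1.68 CPM, a 4.70-fold rise (log2 fold change 2.23, SE 0.037, adjusted p = 1.01e-16, edgeR). The GENCODE M21 annotation places Cebpd on chromosome 16, where its exons share 562 bases with those of Spidr on the opposite strand. Spidr, a gene of DNA repair named here for that position, rose as well, from 29.8 ± 1.91 to 106 ± 0.583 CPM, which is 1.83 on the log2 scale (SE 0.049). The exons of Cebpd cover 3746 bases in GENCODE M21, while the length behind the deposited FPKM was 2260 bases. The overlap in the annotation that was counted is therefore not known, and no source used here gives the strand setting of the counting. Whether reads of 1 of these 2 genes were counted for the other was not tested.

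Cebpb encodes a factor whose messenger RNA is translated into longer activating and shorter inhibitory forms, a difference that gene counts do not resolve. Its level was 90.3, 88.4 and 88.6 CPM in CRE1, CRE2 and CRE3, while the wild-type libraries had 34.8, 34.7 and 38.7 CPM. The knockout libraries lay close together, and the wild-type library with the highest level was still far below them. The means were 89.1 ± 1.05 and 36.1 ± 2.31 CPM, a 2.47-fold rise (log2 fold change 1.30, SE 0.049, adjusted p = 2.14e-12, edgeR). In GENCODE M21 Cebpb, on chromosome 2, has 1 exon of 1504 bases, which shares 312 bases with exons of Tmem189 on the opposite strand. Whether reads of Tmem189 were counted for Cebpb was not tested.

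Cebpa went the other way. It had 236, 314 and 250 counts in the knockout libraries and 1195, 1160 and 1209 in the wild-type libraries. Its levels were 8.11, 8.87 and 8.31 CPM against 28.0, 27.5 and 28.0 CPM, with no overlap between the groups. The means were 8.43 ± 0.394 and 27.8 ± 0.301 CPM, a 3.29-fold fall (log2 fold change −1.72, SE 0.070, adjusted p = 4.98e-12, edgeR). Macrophages are among the cells known to express Cebpa, and all 16 macrophage markers fell in the same libraries, with a median log2 fold change of −3.89. Adipocyte markers gave 1 rise and 1 fall among 6 tested, where 62.7% of all genes tested were called in either direction. The part of either cell type in the fall of Cebpa was not tested, and in bulk libraries fewer cells of a type and less RNA per cell cannot be told apart.

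Cebpg, the partner-dependent member, was at 45.9, 51.1 and 47.0 CPM in CRE1 to CRE3, where wild-type libraries had 46.9, 49.4 and 44.3 CPM. The groups overlapped, and the means were 48.0 ± 2.74 and 46.9 ± 2.54 CPM. Its log2 fold change was 0.036 with a 95% interval from −0.082 to 0.15 (adjusted p = 0.591, edgeR). Cebpz, the ribosome assembly gene, was at 42.3, 54.9 and 50.1 CPM in CRE1 to CRE3, where wild-type libraries had 51.6, 49.9 and 49.9 CPM. CRE1 was the lowest of the 6 and CRE2 the highest, so the knockout libraries spread on both sides of the wild type. The means were 49.1 ± 6.33 and 50.4 ± 0.970 CPM, with a log2 fold change of −0.036 and a 95% interval from −0.19 to 0.11 (adjusted p = 0.681, edgeR).

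The absence of a call for Cebpg and Cebpz depended on the scaling. With total counts alone, which shifted all genes by a median of −0.21 on the log2 scale, Cebpg was at −0.17 (adjusted p = 0.0136) and Cebpz at −0.24 (adjusted p = 0.00851) in edgeR's test, and both were called lower. Leaving out CRE1 turned the sign of Cebpz to 0.064 (adjusted p = 0.278). In GENCODE M21 the exons of Cebpz, on chromosome 17, share 171 bases with those of Cebpzos on the opposite strand, and Cebpzos, at 20.6 ± 0.289 against 18.8 ± 1.86 CPM, was not called (adjusted p = 0.132, edgeR). Without WT3, Cebpzos was called higher (log2 fold change 0.22, adjusted p = 0.0197, edgeR).

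**Figure D2:**
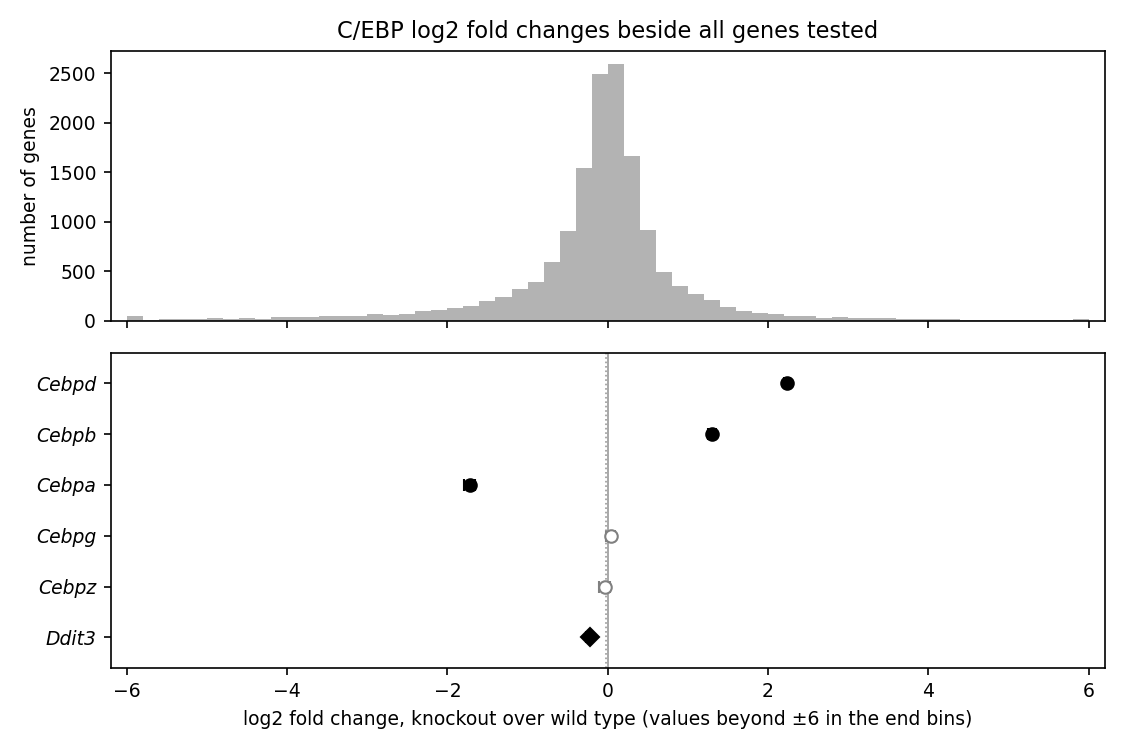
Upper panel, number of genes by log2 fold change (knockout over wild type) for the 15028 genes tested; lower panel, log2 fold change with its SE for the C/EBP genes and Ddit3, filled where the adjusted p was under 0.05. Cebpd at 2.23 and Cebpb at 1.30 lie in the right tail, Cebpa at −1.72 in the left tail, and Cebpg and Cebpz at the centre, where the dotted line marks the median of all genes.

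The remaining genes of the family gave little signal or a small change. Cebpe, a factor of late granulocyte maturation, had 0 counts in each knockout library and 0, 1 and 1 in the wild type, under a floor of 3 counts in each library, so no fold is given. Ddit3, which encodes CHOP, a stress-induced C/EBP relative that dimerizes with other members, fell from 52.8 ± 1.55 to 45.1 ± 1.51 CPM, with a log2 fold change of −0.23 (SE 0.047, adjusted p = 6.11e-04, edgeR).

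Levels of different genes were compared per length, in the deposited FPKM, which are not scaled with TMM factors. The length behind the deposited FPKM was 2636 bases for Cebpa, 1518 for Cebpb, 2260 for Cebpd, 4702 for Cebpg and 4077 for Cebpz. In the wild type Cebpd at 28.1 ± 0.827 FPKM and Cebpb at 25.5 ± 1.67 FPKM led. Their ranges overlapped, but Cebpd was the higher within each library. Cebpz followed at 13.3 ± 0.235 FPKM, above Cebpa at 11.3 ± 0.120 and Cebpg at 10.7 ± 0.575 FPKM, the last pair again overlapping. In the knockout Cebpd at 114 ± 3.23 FPKM stood clear of Cebpb at 54.6 ± 0.390 FPKM. Cebpz at 11.2 ± 1.51 and Cebpg at 9.49 ± 0.603 FPKM overlapped in range, but Cebpz was the higher within each library. Cebpa was last at 2.97 ± 0.158 FPKM. On this scale every knockout library was below every wild-type library for Cebpz (9.60 to 12.6 against 13.1 to 13.6 FPKM), unlike on the TMM scale.

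The summed level of the 5 genes was 193 ± 5.05 FPKM in knockout libraries and 89.0 ± 1.42 FPKM in wild-type libraries. Cebpd made up 59.4% ± 0.385 of the knockout sum and 31.6% ± 0.745 of the wild-type sum. Cebpb held a like share in both, 28.3% ± 0.781 and 28.7% ± 1.51, with overlapping libraries. As a share of counts, which favours longer genes, Cebpb held 18.9% of the knockout sum and 16.4% of the wild-type sum, and Cebpg 10.1% and 21.3% in place of 4.93% and 12.0%. In FPKM, Cebpa made up 12.7% ± 0.249 of the wild-type sum and 1.54% ± 0.044 of the knockout sum. These shares describe transcripts and not protein, and they use the total of the 5 genes as their base, so a larger Cebpd lowers the share of the rest.

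**Figure D3:**
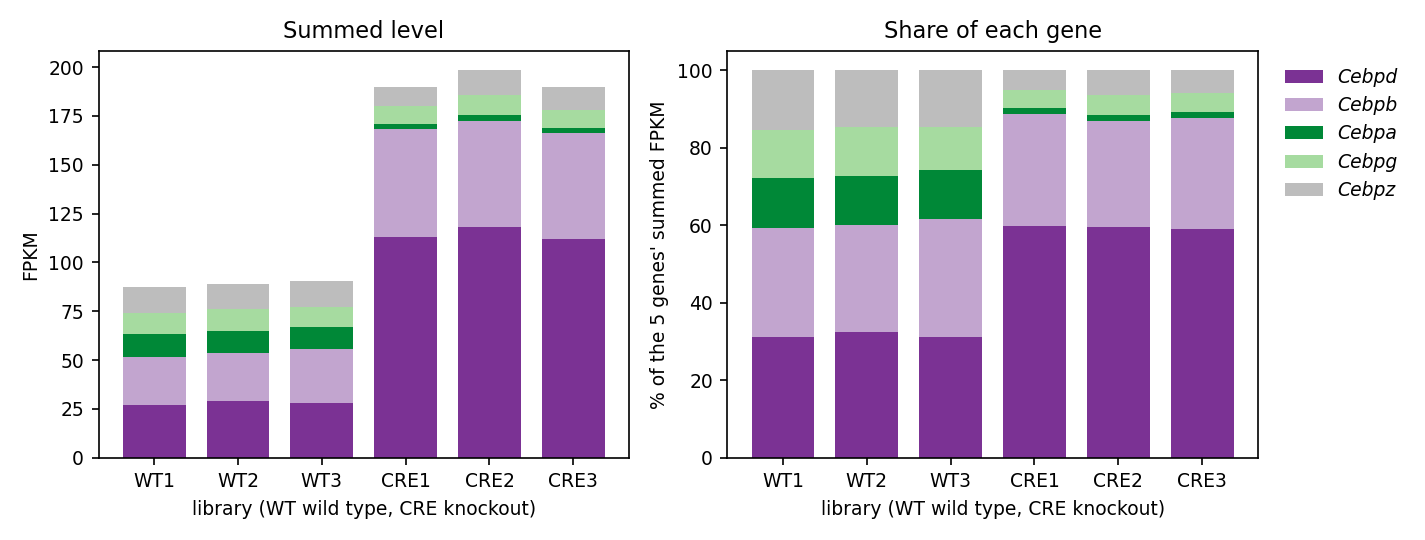
Left, FPKM of the 5 C/EBP genes stacked for each library; right, each gene's percentage of the summed FPKM. The knockout sums (mean 193 FPKM) exceed the wild-type sums (mean 89.0 FPKM), Cebpd fills 59.4% of the knockout sum against 31.6% of the wild-type sum, and the band of Cebpa narrows from 12.7% to 1.54%.

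Ratios between members within a library do not depend on how libraries are scaled. The log2 ratio of Cebpa to Cebpd counts was −5.09, −5.01 and −5.03 in CRE1 to CRE3 and −1.04, −1.15 and −1.08 in the wild-type libraries, a 15.5-fold shift. The ratio of Cebpa to Cebpb shifted 8.17-fold, with a mean log2 of −3.40 ± 0.080 for knockout and −0.37 ± 0.085 for wild-type libraries. Cebpb and Cebpd both rose, and their log2 ratio was −0.71 ± 0.10 in the wild type and −1.64 ± 0.041 in the knockout, a 1.90-fold shift toward Cebpd. The groups did not overlap in 9 of the 10 pairs of members. These pairs are the ones that hold Cebpa, Cebpb or Cebpd, whose own levels did not overlap, so they are not separate observations. The share over pairs of other genes was not computed, and for single genes it was 67.1% of those tested. Each of those 9 reached p = 0.1 in a two-sided exact permutation test over the 6 libraries, the smallest value that 3 against 3 allows, and 0.111 after Benjamini-Hochberg adjustment over the 10 pairs. Such a design cannot reach 0.05. The exception was Cebpg over Cebpz, with a difference of 0.081 in log2 ratio between the groups (exact p = 0.5).

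Genes with the most similar pattern over the 6 libraries were found by the distance between log2 CPM profiles among 9580 genes. For Cebpd they were Gtf2e2, a subunit of the general transcription factor TFIIE (158 against 34.6 CPM), and Hspa1b, a heat shock chaperone (75.6 against 16.2 CPM), knockout mean first. Hspa1b has a near-identical copy, so its separate count is uncertain. For Cebpb the nearest was Traf3ip2, an adaptor of interleukin 17 receptors (36.0 against 14.7 CPM). For Cebpa they were Prss23, a serine protease (174 against 580 CPM) and Pgm5 (17.0 against 53.9 CPM). For Cebpg they were Proser1 and Zscan20, with log2 fold changes of 0.023 and 0.033. For Cebpz they were Paxbp1 and Ubxn2a, at −0.026 and −0.051. As with Cebpg and Cebpz themselves, the signs of all 4 changed with the scaling or with a library left out, and Paxbp1 (−0.23) and Ubxn2a (−0.26) were called lower with total counts alone. With 2 groups of 3 libraries, likeness reflects mainly the size of the group difference.

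Genes listed for cytokine and κB signalling, which is known to induce Cebpb and Cebpd, were mostly higher in the knockout. The part of this signalling in the rise of Cebpb and Cebpd was not tested. Of 21 tested genes of cytokine and κB signalling, 17 rose and 1, the kinase gene Mapk3 (log2 fold change −0.25), fell. With total counts alone 3 fell and with upper-quartile factors 2. The median log2 fold change was 0.50, against −0.021 over all genes tested. Of all genes tested, 30.7% were called higher and 32.1% lower, which is the background for the counts of this and every later list. Nfkbiz, an atypical IκB protein, rose 5.55-fold, from 35.5 ± 1.60 to 197 ± 1.40 CPM. Socs3, the feedback inhibitor of STAT3 signalling, rose 3.97-fold, from 38.9 ± 0.961 to 154 ± 7.27 CPM. Osmr, the oncostatin M receptor, rose 1.78-fold, from 308 ± 5.24 to 549 ± 29.4 CPM. The list holds feedback inhibitors as well as receptors and kinases, so a higher transcript level does not measure the signal. Socs3 is also on the acute-phase and inflammatory list below, and Il6ra on the myeloid list.

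Partners and regulators of C/EBP proteins went both ways. Among 25 tested, 14 rose and 9 fell, and the median difference was 0.25 on the log2 scale. The AP-1 genes Jun (log2 fold change 1.47, SE 0.035) and Junb (1.73, SE 0.045) rose, and so did Nfil3, a bZIP repressor, from 19.1 ± 1.63 to 69.9 ± 2.80 CPM. Trib1 (0.82) and Trib2 (0.87), pseudokinases that direct C/EBP-alpha protein to degradation, both rose and were named after their values were seen. Fos (−1.17), named in the same way, fell from 9.39 to 4.17 CPM. Atf4, the known partner of C/EBP-gamma, rose by 0.25 on the log2 scale with TMM factors, but was at 0.038 and not called with total counts alone (adjusted p = 0.298, edgeR).

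Acute-phase and inflammatory genes known as targets of C/EBP-beta and C/EBP-delta had the highest median of the lists examined. Of 24 tested, 23 rose and 1 fell, and their median on the log2 scale was 3.29. Mmp3, the stromelysin, rose 22.9-fold, from 898 ± 5.05 to 20526 ± 435 CPM. The acute-phase gene Saa3 rose 16.8-fold, from 882 ± 19.1 to 14839 ± 528 CPM, and the collagenase Mmp13 rose 10.8-fold, from 339 ± 4.84 to 3674 ± 72.7 CPM. The member that fell was Il1rn, the interleukin 1 receptor antagonist, from 909 to 147 CPM (log2 fold change −2.63). Many of these genes also answer to NF-κB, and the list was drawn up with their rise in these libraries known, so its count is no independent evidence on C/EBP activity.

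Myeloid genes known as targets of C/EBP-alpha or C/EBP-epsilon mostly fell. Of 20 genes listed, 13 had enough counts to be tested. Of these 13, 8 fell and 4 rose, and their median on the log2 scale was −1.57. Csf1r, the receptor of macrophage colony-stimulating factor, fell 28.1-fold, from 135 ± 3.99 to 4.82 ± 0.417 CPM. Lysozyme Lyz2 fell 7.65-fold, from 1748 ± 24.9 to 229 ± 9.25 CPM, and the integrin Itgam fell 7.35-fold, from 92.8 ± 2.99 to 12.7 ± 1.07 CPM. The 4 that rose were Camp (log2 fold change 4.25), Prtn3 (4.24), S100a8 (3.50) and the interleukin 6 receptor Il6ra (0.86). Camp, Prtn3 and S100a8 are granulocyte genes and stayed low, at 3.48, 2.27 and 2.51 CPM in the knockout. Other granulocyte genes of the list did not rise. Csf3r fell from 0.983 to 0.281 CPM (log2 fold change −1.78), S100a9 was not called (−0.68), and Mpo, Elane, Ltf and Ngp had too few counts to be tested. Csf1r, Lyz2, Itgam and Cd14 are also on the macrophage marker list, so the fall of this list and that of the markers are not separate observations.

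Adipogenic and metabolic C/EBP targets had no common direction, with 4 rises and 5 falls among 17 tested and a median log2 fold change of 0.014. Over all genes tested 30.7% rose and 32.1% fell, so these counts are no more than the background. The lipase gene Lpl fell 6.12-fold, from 987 ± 30.2 to 161 ± 8.17 CPM, and the fatty acid transporter Cd36 fell 7.54-fold, from 104 ± 3.83 to 13.7 ± 1.06 CPM. Both are also expressed by macrophages. Fabp4, a fatty acid binding protein, rose 3.31-fold, from 57.6 ± 3.25 to 191 ± 9.79 CPM. The part of macrophages in the falls of Lpl and Cd36, or in the rise of Fabp4, was not tested. The adipocyte hormone Adipoq was at 12.8 ± 1.08 and 11.2 ± 0.956 CPM and was not called (log2 fold change 0.20). With total counts alone its value was −0.0072, and it was called higher when CRE1 (0.27, adjusted p = 0.0165, edgeR) or WT2 (0.27, adjusted p = 0.0381, edgeR) was left out. With total counts alone the falls numbered 9.

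In the growth plate list linked to C/EBP-beta, 4 of 11 tested genes rose and 7 fell (median −1.03 on the log2 scale). Besides Mmp13, the rises were the aggrecanase Adamts5 (1.00), Matn1 (1.30) and Hif1a (1.00), named because they complete the count. Col2a1 fell 6.67-fold, from 3397 ± 71.3 to 509 ± 29.0 CPM, and the proteoglycan Acan fell 7.19-fold, from 352 ± 17.9 to 49.0 ± 1.55 CPM. Cdkn1c, a cell cycle inhibitor described as a target of C/EBP-beta in chondrocytes and named here for that, fell from 61.0 to 24.1 CPM (log2 fold change −1.34) while Cebpb rose.

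**Figure D4:**
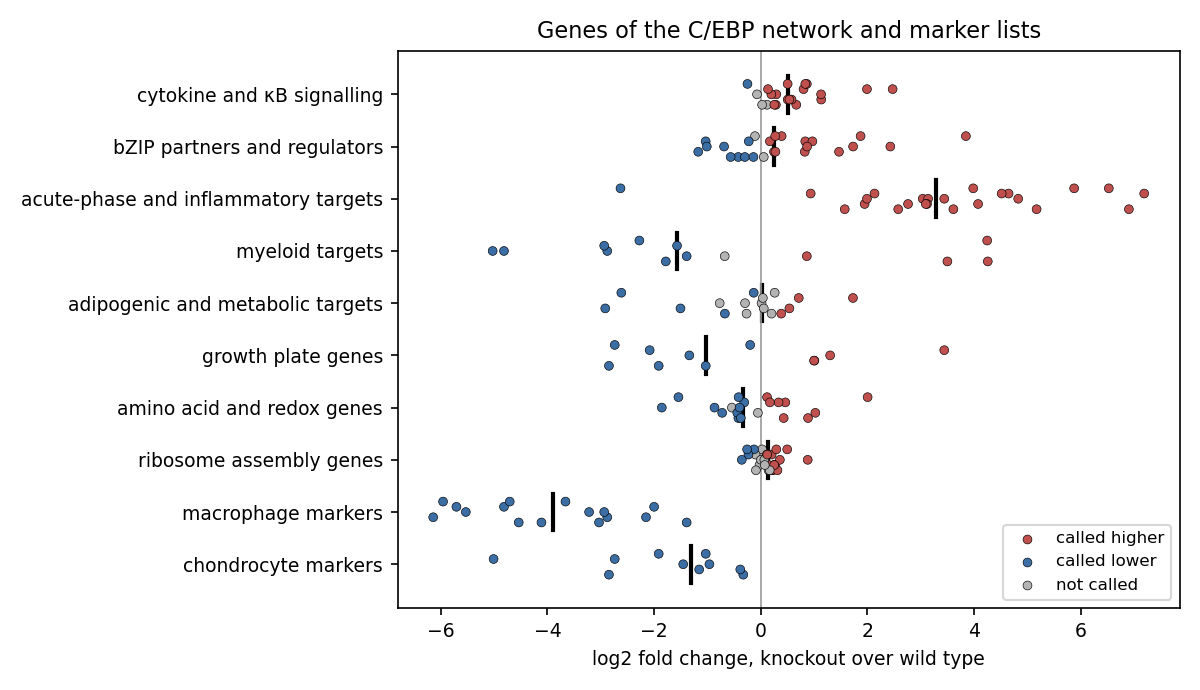
Log2 fold change (knockout over wild type) of every tested gene in the C/EBP network lists and the macrophage and chondrocyte marker lists, coloured by its call; vertical strokes are list medians and the vertical spread of points has no meaning. The acute-phase and inflammatory list lies furthest right (median 3.29) and macrophage markers furthest left (median −3.89).

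Genes that C/EBP-gamma and ATF4 serve in amino acid and redox metabolism divided, with 8 rises and 10 falls among 20 and a median log2 fold change of −0.34. Vldlr, a lipoprotein receptor, rose 4.01-fold, from 152 ± 1.28 to 610 ± 27.7 CPM. Phgdh, of serine synthesis, fell 2.92-fold, from 53.3 ± 0.866 to 18.3 ± 0.657 CPM, and Pycr1, of proline synthesis, fell 3.62-fold, from 18.4 ± 1.03 to 5.08 ± 0.141 CPM. With total counts alone the rises numbered 5.

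Ribosome assembly genes, among which Cebpz acts, gave small values. Of 28 tested, 14 rose and 4 fell, and the median log2 fold change was 0.13. Over all genes tested 62.7% were called in either direction, so the number called in this list was close to the background. The helicase Ddx10 rose 1.84-fold, from 26.9 ± 1.30 to 49.3 ± 6.84 CPM, while Pes1 (log2 fold change 0.31) and Nip7 (0.49) rose less. The direction of the list depended on the scaling: with total counts alone 3 rose and 12 fell. Cebpz itself, with an interval from −0.19 to 0.11, lay within the range of these small values.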

How the data were processed

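Per the labels' protocols, chondrocyte RNA was isolated with TRIzol and a VAHTS Universal V6 kit was used for the libraries. fastp, HISAT2, HTSeq and GRCm39 are named in the submitters' processing notes without versions or roles; the notes give no strand setting or annotation release. The authors deposited whole-number read counts per gene, and FPKM values that equal the deposited count over the column total and a length fixed per gene, checked on 88497 entries with counts of at least 10. Wild-type columns matched sample titles by name; the CRE columns showed only their group. Within groups, the chi-square between library pairs, per degree of freedom, lay between 3.19 and 8.09, above sampling noise. The common dispersion fitted by edgeR was equal to a coefficient of variation of 4.88%. Each library was kept as a replicate, but these values do not tell technical from biological spread.

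The main test was the two-sided quasi-likelihood test of edgeR 4.0.16 (R 4.3.3) with group as the only term and TMM scaling. filterByExpr, set to a minimum count of 10, left 15028 genes. The SE is the log2 fold change divided by the square root of F. Counts were simulated for the knockout against wild type comparison over 14840 genes, with 50 genes changed at each size and the rest left unchanged. Recovery was 36% at 1.2-fold, 78% at 1.5-fold, 90% at 2-fold and 100% at 4-fold, and 6.75% of calls were false. In the libraries themselves 62.7% of the genes tested were called. Whether the simulated rates hold with so many genes called was not tested. The members and the gene lists were chosen with earlier results of these data known.

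The genes named were Mfn2, the 5 C/EBP genes, Cebpe and Ddit3, the 3 genes of smallest p in each list, the 2 genes of most similar pattern per member (mean log2 CPM at least 3, predicted genes left out), and others marked in the text; 1 gene that this rule takes is not reported here. Marker genes named by level were left out unless a result turns on them: neutrophil markers gave 2 rises and 1 fall among 4 tested, fibroblast markers 4 and 3 among 9, and 1 hepatocyte marker of 5, Apoa1, was tested and not called, but was called higher without the filter on low counts (adjusted p = 0.00792) or without CRE1 (adjusted p = 2.54e-04). Promoter motifs were chosen after the sequences were seen. Other settings were DESeq2 1.42.0, limma-voom (limma 3.58.1), other scaling and filters, limma on log2(FPKM + 1) and log2(FPKM + 0.1), each library left out, and a replicate block.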

Additional observations from a re-analysis of the deposited data

How the results depend on the processing

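Cebpa, Cebpb and Cebpd passed the test with the same direction in all 17 other settings. Their log2 fold changes ran from −1.93 to −1.64, from 1.07 to 1.36 and from 1.99 to 2.26. The count of members called lower was 1 with TMM factors and 3 with total counts alone and on filtered log2(FPKM + 1) or log2(FPKM + 0.1), but 1 on unfiltered log2(FPKM + 1), where Cebpg had an adjusted p of 0.0684; the cause was not tested. Over all genes, 2789 rises and 7627 falls were called with total counts alone, 2354 and 2345 rises on filtered log2(FPKM + 1) and log2(FPKM + 0.1), and 2706 rises and 7328 falls on unfiltered log2(FPKM + 1), against 4607 and 4823 with TMM factors. The share of rises among calls was 48.9% (TMM), 38.0% (upper quartile) and 26.8% (total counts).

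Cebpg turned to −0.055 with upper-quartile factors, −0.17 with total counts alone, −0.16 on log2(FPKM + 1) with and without the filter and −0.17 on log2(FPKM + 0.1), and ran from −0.0041 (without WT3) to 0.074 with 1 library left out. Cebpz was called lower at −0.24 with total counts alone, at −0.24 on filtered log2(FPKM + 1) and at −0.25 on log2(FPKM + 0.1), and ran from −0.11 to 0.064 (without CRE1) with 1 library left out. Of 61 other genes followed, 53 kept direction and side of the threshold in every setting that tested them. Of the rest, Atf4 and Apoa1 are given above; with total counts alone, filtered log2(FPKM + 1), log2(FPKM + 0.1) and unfiltered log2(FPKM + 1) in that order, Adipoq stood at −0.0072, −0.0083, −0.0092 and −0.0083, Proser1 at −0.19, −0.15, −0.18 and −0.15, and Cebpzos at −0.075, −0.064, −0.069 and −0.064. Zscan20 stood at −0.18 with total counts alone and −0.073 on unfiltered log2(FPKM + 1). With upper-quartile factors Proser1 was at −0.068 and Zscan20 at −0.058. With 1 library left out, Proser1 ran from −0.0088 to 0.060, Paxbp1 from −0.087 to 0.063 and Ubxn2a from −0.14 to 0.034. On filtered log2(FPKM + 1) and log2(FPKM + 0.1) Paxbp1 (−0.22 and −0.24) and Ubxn2a (−0.24 and −0.27) were called lower.

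A replicate block, taken from the digit in the library names, gave 4437 rises and 4657 falls and left the calls of all 5 members as they were. Deviations of same-numbered libraries correlated at −0.12, 0.079 and −0.13, and those of differently numbered ones at between −0.12 and 0.21 (CRE1 with WT3). With 3 libraries per group these values cannot decide whether a number marks a pair, and the CRE columns are not tied to numbered samples. At this depth no change could be detected for Cebpe.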
